A study of Rattus norvegicus with 59 samples.

Results

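The nucleus accumbens was set against the striatum within the same rats. All arrays titled accumbens (12) and all titled striatum (12) were used, 24 of the 59 arrays of the series, and each accumbens array was paired with the striatum array of the same animal by the animal number in the titles. The study measured total RNA from 5 brain regions of adult male rats of a pair of inbred lines, iP5C and iNP1, which were selected for preferring and for not preferring alcohol; they are called iP and iNP here, as in the titles. Each line gave 6 rats (iP animals 1 to 6, iNP animals 7 to 12), and RNA of each rat was labelled with biotin and hybridised separately to an Affymetrix rat expression array. No rat received a drug or alcohol according to the labels; all were housed in pairs and accustomed to handling before decapitation. The labels do not say which part of the striatum or of the accumbens was dissected, and they name neither core nor shell. Line and region were read from the titles, since a separate label of origin names iNP on all arrays, iP rats included.

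The accumbens is the ventral part of the striatum. It receives dopamine fibres from the ventral tegmental area and inputs from limbic cortex, amygdala and hippocampus, and is studied for reward and motivation. The dorsal part receives dopamine from the substantia nigra and inputs from sensory and motor cortex, and is studied for movement and habit. In both parts nearly all neurons are GABA-releasing medium spiny neurons, divided into a direct pathway type, with dopamine receptor Drd1 and the peptides of Tac1 and Pdyn, and an indirect pathway type, with Drd2, the adenosine receptor Adora2a and Penk.

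The deposited values are linear array signals, 1 for each probe set. Signals under 16 were set to 16, and differences are accumbens minus striatum per animal on the log2 scale, so that a difference of 1 is a doubling of signal. Median signal was 304 to 391 in accumbens arrays and 322 to 356 in striatum arrays, and was higher in accumbens in 11 of 12 animals (exact sign-flip permutation test, two-sided, p = 0.0337, adjusted p = 0.0562 over 5 quality measures). The ratio of the beta-actin 3′ to 5′ control signals, a sign of RNA integrity, was -0.09 to 0.73 in accumbens and 0.40 to 1.01 in striatum (log2) and was higher in accumbens in 1 of 12 animals (exact permutation test, adjusted p = 0.00977). The mean correlation of an array with the other arrays of its region was 0.921 to 0.962 in accumbens and 0.949 to 0.967 in striatum and was higher in accumbens in 3 of 12 animals (exact permutation test, adjusted p = 0.0391). The GAPDH 3′ to 5′ ratio (adjusted p = 0.846) and the hexokinase ratio (adjusted p = 0.355) did not pass. Accumbens of iP animal 4 stood apart: its mean correlation with the other iP accumbens arrays was 0.925, and its median correlation was 0.923 with amygdala arrays and 0.922 with accumbens arrays. Striatum of iP animal 2 correlated at 0.951 with its own group. Among the arrays used only for comparison, amygdala of iP animal 1 was nearest cortex, amygdala of iNP animals 7 and 8 nearest accumbens, and cortex of iP animal 5 nearest amygdala.

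Both sets of arrays carried the markers of spiny neurons that their labels call for. The summed signal of 5 direct pathway genes was 11780 to 17207 in accumbens and 9980 to 19080 in striatum, against 5219 to 10167 in amygdala, 5344 to 7687 in cortex and 5035 to 6624 in hippocampus. For 19 genes shared by both spiny neuron types, the sums were 59210 to 69630 in accumbens and 56809 to 84831 in striatum. They were 33683 to 45781 in amygdala, 36722 to 40929 in cortex and 29835 to 34848 in hippocampus. Accumbens and striatum overlapped with each other in both sums, and neither overlapped with cortex or hippocampus. For the direct pathway genes the lowest striatum sum (9980) lay below the highest amygdala sum (10167).

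With limma, the animal as a block and a Benjamini-Hochberg adjusted p under 0.05 over all 5244 probe sets tested, 800 probe sets differed between accumbens and striatum (15.3%). Of these, 460 were higher in accumbens (8.77%) and 340 lower (6.48%), so that 57.5% of calls were higher. After quantile normalization 386 were higher and 384 lower, and the higher share was 50.1%. Large differences ran mostly one way: 73 probe sets were higher by more than 1 on the log2 scale (1.39%) and 16 lower by as much (0.305%). Of the 3174 genes, each taken at its brightest probe set, 289 were higher (9.11%) and 216 lower (6.81%), with 49 (1.54%) and 6 (0.189%) past a difference of 1. The median difference over all genes tested was 0.0249. For 97 probe sets (1.85%) the 12 accumbens and 12 striatum values did not overlap at all, and so for 62 genes (1.95%). Called and of 1 sign in all 12 animals were 301 probe sets (5.74%). All 20 of the largest rises and all 20 of the largest falls described below kept 1 direction in every animal, as the rule for naming them required.

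**Figure D1:**
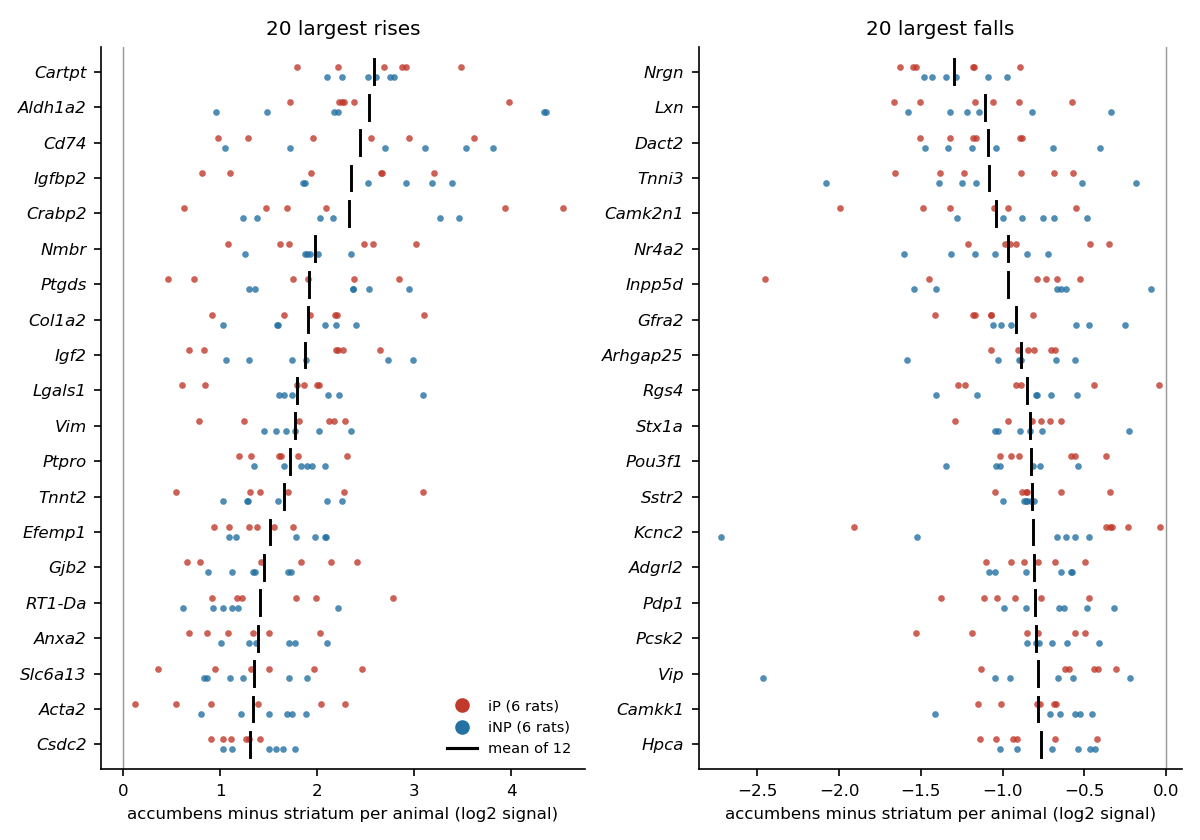
Accumbens minus striatum per animal (log2 signal, x axis) for the 20 genes with the largest rises (left) and the 20 with the largest falls (right) among calls with 1 direction in all 12 rats. Red points are iP rats, blue points iNP rats, and black bars the mean of 12. The rises reach 2.58 (Cartpt) and the falls -1.30 (Nrgn).

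The largest rise was in Cartpt, the gene of the cocaine- and amphetamine-regulated transcript peptides, a neuropeptide of accumbens neurons. Cartpt signal was 1141, 1824 and 2313 (lowest, median and highest) in accumbens and 173, 286 and 431 in striatum. The lowest accumbens array lay above the highest striatum array, and the difference was 2.58 ± 0.12 (log2, SE, n = 12 animals; limma adjusted p = 1.12e-09), a 5.99-fold higher signal. The promoter of Cartpt is shown because Cartpt led all genes and carries a full palindromic cyclic AMP response element, the sequence bound by the transcription factor CREB, which also lies upstream of Scg2. Scg2 encodes secretogranin II, a protein of peptide-holding vesicles; it had 1923, 2472 and 3677 in accumbens and 1191, 1404 and 2126 in striatum and rose by 0.78 ± 0.07 (adjusted p = 1.2e-06). The sequences are the 250 bases before the annotated start, 5′ to 3′ on the gene's strand, from RefSeq on GRCr8 (Cartpt, chr2:32991236-32991485, minus strand; Scg2, chr9:88256867-88257116, minus strand). Capitals mark the motif TGACGTCA, which begins at -142 in Cartpt and at -123 in Scg2:
Cartpt: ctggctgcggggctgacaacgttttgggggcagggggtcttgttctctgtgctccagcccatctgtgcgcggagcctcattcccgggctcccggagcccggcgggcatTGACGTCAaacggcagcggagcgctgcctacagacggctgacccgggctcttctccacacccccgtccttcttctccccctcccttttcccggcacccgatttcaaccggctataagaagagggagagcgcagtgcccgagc
Scg2: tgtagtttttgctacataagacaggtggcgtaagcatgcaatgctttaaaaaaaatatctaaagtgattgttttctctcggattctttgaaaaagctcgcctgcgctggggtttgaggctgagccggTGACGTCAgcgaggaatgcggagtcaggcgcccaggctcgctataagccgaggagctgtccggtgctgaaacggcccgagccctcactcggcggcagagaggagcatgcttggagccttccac
The motif reads the same on both strands. It was present in 1.697% of 27457 promoters of this length, in 2.41% of those of the genes tested, in 6 of 230 promoters of genes called higher (2.609%) and in 6 of 166 of genes called lower (3.614%). Among other promoters looked at singly, those of Nr4a2, Vip, Homer1, Tac1, Pdyn, Sst, Egr2 and Nrgn did not hold the full motif. A match is a stretch of letters only, and its use in these tissues was not measured.

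Of 10 tested genes listed for the ventral striatum and ventral forebrain, 5 rose, 1 fell and 4 did not pass, with a median difference of 0.45 (0.0249 over all genes). Over all genes 9.11% rose and 6.81% fell. Besides Cartpt these were Nnat, an imprinted proteolipid gene, with 6231, 7194 and 8905 in accumbens and 1866, 3485 and 5109 in striatum; it rose by 1.10 ± 0.09. Calb2, the gene of the calcium buffer calretinin, had 1101, 1611 and 2643 in accumbens and 650, 813 and 1059 in striatum, a rise of 1.06 ± 0.12. The imprinted zinc finger gene Plagl1 rose by 1.02 ± 0.10. All 4 of these genes had no overlap between the regions, against 1.95% of all genes. The neurokinin B gene Tac3 was called at 0.56 ± 0.18 (adjusted p = 0.046), but the call was lost when any of 10 single animals was left out (adjusted p up to 0.0962). The cholecystokinin gene Cck went the other way, with 4599, 6275 and 7945 in accumbens and 8196, 10524 and 12781 in striatum, and fell by 0.75 on the log2 scale (adjusted p = 5.17e-07), without overlap. The dopamine receptor gene Drd3 differed by 0.13 ± 0.07 (adjusted p = 0.203), Gda by 0.22, Dlk1 by 0.35 and Ndn by -0.14, and none passed; Gda was called without animal 4 (0.34, adjusted p = 0.00552).

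Several other large rises were in genes of neurons or of signalling. Nmbr, the receptor of the peptide neuromedin B, had 415, 640 and 854 in accumbens and 92, 164 and 239 in striatum. It rose by 1.98 ± 0.15 (adjusted p = 2.9e-07), a 3.95-fold higher signal with no overlap. Ptpro, a receptor-type tyrosine phosphatase of neurons and kidney podocytes, had 2169, 2688 and 3541 in accumbens and 711, 826 and 1034 in striatum, and rose by 1.72 ± 0.09 (adjusted p = 3.4e-09). A further tested Ptpro probe set rose by 1.61. Csdc2, an RNA-binding protein gene, had 1635 to 2590 in accumbens and 703 to 942 in striatum and rose by 1.31 ± 0.08. Camk2d, the delta subunit of calcium/calmodulin kinase II, had 3222 to 4285 in accumbens and 1644 to 2546 in striatum and rose by 0.74 ± 0.06; 2 of its other 3 tested probe sets were also called higher and the third was not. Rab3b, a small GTPase of synaptic vesicles, rose by 0.70 ± 0.07, and Dlx5, a homeobox gene of forebrain GABA neurons, by 0.73 ± 0.12. The accumbens and striatum values of these last 3 genes did not overlap either, against 1.95% of all genes without overlap.

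The genes that tell the direct pathway neurons apart did not pass the test at their brightest probe sets. Drd1, the dopamine receptor of these cells, had 1861, 2338 and 2834 in accumbens and 1327, 2267 and 3621 in striatum, a difference of 0.04 ± 0.11 (adjusted p = 0.859). Accumbens values of Drd1 lay inside the range of striatum values. The substance P precursor Tac1 had 3872, 6704 and 8979 in accumbens and 3154, 6147 and 9990 in striatum (0.08 ± 0.14), and the dynorphin precursor Pdyn 3830, 4938 and 5619 in accumbens and 3358, 4847 and 5487 in striatum (0.03 ± 0.06). A dimmer Pdyn probe set differed by 0.40 (adjusted p = 0.035), so the probe sets of this gene disagree. The brightest Pdyn probe set was also bright outside the striatum. Its log2 mean was 12.07 in cortex without iP animal 5 and 11.76 in amygdala without iP animal 1. The muscarinic receptor gene Chrm4 differed by 0.08, and Isl1, a transcription factor of direct pathway neurons, by 0.35 ± 0.12 (adjusted p = 0.0532), higher in 11 of 12 animals. Thus 0 of 5 tested members were called by limma at the brightest probe set, against 15.9% of all genes. With the mean of all tested probe sets of a gene, 1 of the 5 was called higher and 0 lower.

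Among the indirect pathway genes, Adora2a was lower in accumbens. It had 1358, 1549 and 1741 in accumbens and 1578, 1985 and 3056 in striatum, and fell by 0.47 on the log2 scale (SE 0.10; adjusted p = 0.00253), lower in all 12 animals although the ranges overlap. The enkephalin precursor Penk had 7509, 8656 and 10429 in accumbens and 6340, 9791 and 15143 in striatum, a difference of -0.17 ± 0.10 (adjusted p = 0.29). Striatum spread further than accumbens for Penk, in both directions. Drd2 was below the signal filter, which dropped the 40% dimmest probe sets; it had 347, 584 and 755 in accumbens and 640, 856 and 1075 in striatum, was lower in 11 of 12 animals, and fell by 0.56 in the fit without the filter (adjusted p = 0.00162; 845 of 8740 probe sets called there, 9.67%) and was also called with the filter set on the 24 arrays alone (adjusted p = 0.000648). Ptprm differed by 0.13 and did not pass. In bulk tissue, fewer cells of a type and less RNA per cell cannot be told apart, here and in every result that follows.

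**Figure D2:**
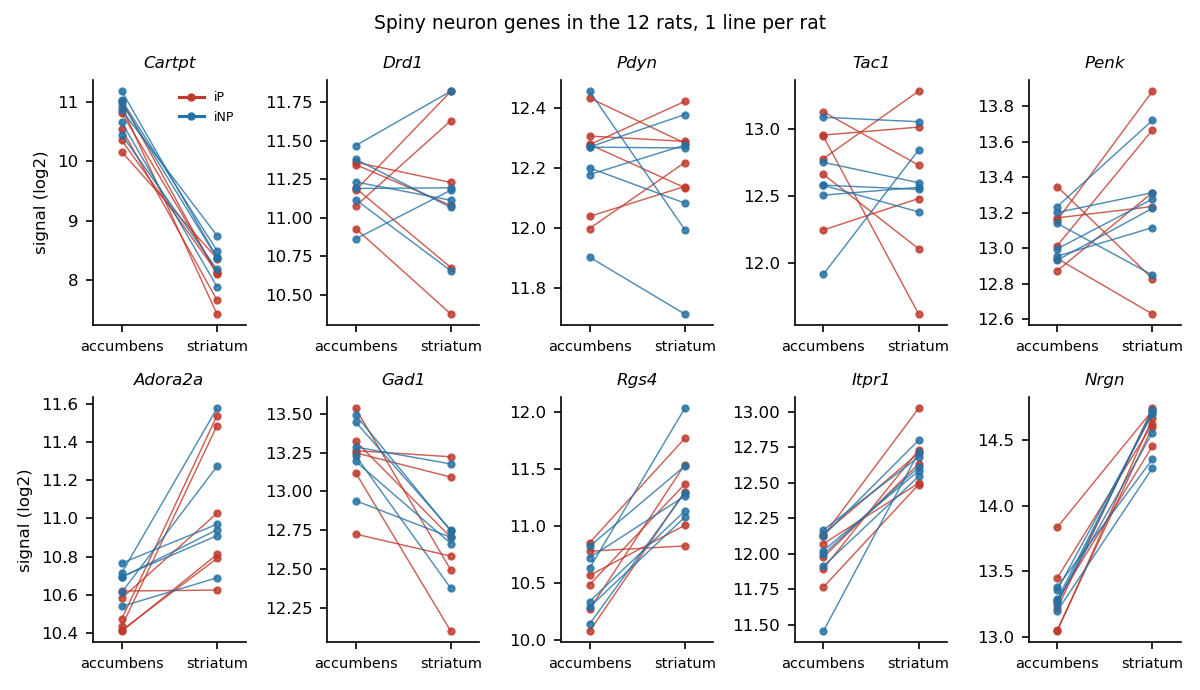
Signal (log2, y axis) of 10 genes, most of them listed for spiny neurons, in accumbens (left) and striatum (right). There is 1 line per rat, red for iP and blue for iNP. Nrgn is counted among the markers of cortical and hippocampal projection neurons. Nrgn and Rgs4 are also bright in cortex (log2 means 14.82 and 11.86 without iP animal 5). Lines for Cartpt and Gad1 slope down to the right in all 12 rats, those for Adora2a, Rgs4, Itpr1 and Nrgn slope up in all 12, and those for Drd1, Pdyn, Tac1 and Penk cross.

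Genes shared by both kinds of spiny neuron moved in both directions. Of 19 tested, 3 rose and 8 fell, against 9.11% and 6.81% of all genes, with a median difference of -0.26. The 3 that rose make and load GABA. Gad1, a GABA-synthesising enzyme, had 6772, 9780 and 11867 in accumbens and 4389, 6673 and 9564 in striatum and rose by 0.52 ± 0.09 (adjusted p = 0.00117), in all 12 animals. Its partner enzyme Gad2 rose by 0.49 ± 0.09 and the vesicular GABA transporter Slc32a1 by 0.45 ± 0.09, each in 11 of 12 animals. With the beta-actin ratio as a covariate, an alternative chosen after seeing the data, the difference was 0.47 for Gad1 (adjusted p = 0.0639), 0.43 for Gad2 (0.0591) and 0.24 for Slc32a1 (0.247). The calls were lost at about the same size in Gad1 and Gad2 and at a smaller one in Slc32a1.

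The 8 shared genes that fell are mostly parts of signalling inside the spiny neuron. Rgs4, which shortens G protein signals, had 1078, 1473 and 1849 in accumbens and 1814, 2517 and 4199 in striatum, and fell by 0.85 on the log2 scale (adjusted p = 1.94e-05), with an overlap between 1814 and 1849 only. Itpr1, the calcium channel of internal stores, had 2805, 4122 and 4604 in accumbens and 5744, 6463 and 8335 in striatum and fell by 0.70 (adjusted p = 1.48e-06), without overlap; all 5 of its tested probe sets were lower. Arpp21, a target of dopamine-driven cyclic AMP signalling, fell by 0.57, and the striatal tyrosine phosphatase Ptpn5 by 0.44, both in all 12 animals. Smaller falls were called in the cytoskeletal gene Actn2 (-0.41), the G protein gamma subunit Gng7 (-0.29) and the adenylyl cyclase Adcy5 (-0.26). Rgs9, whose long form is a striatal regulator of dopamine signals, was called at -0.44 ± 0.13 (adjusted p = 0.0296), and the call was lost without animal 1, 2, 3, 7 or 11 (adjusted p 0.0591 to 0.0661). Camk4 differed by -1.09 ± 0.37 and was lower in 11 of 12 animals, but did not pass (adjusted p = 0.0552). The accumbens array of iP animal 4, which stood apart from its group, was at the floor of 16 for Camk4 and gave a difference of -5.12; without that animal the difference was -0.72 (adjusted p = 0.0299), and without animal 2 it was -1.30 (0.0177). Gnal, Pde1b, Pcp4, Dgkb, Strn, Rgs14 and Rxrg did not pass either.

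All 5 tested genes of the list for the dorsal striatum had differences below 0, and 4 were called lower, against 6.81% of all genes, with a median of -0.35. Kcnab1, a beta subunit of potassium channels, had 787 to 1054 in accumbens and 852 to 1631 in striatum and fell by 0.49 (adjusted p = 0.000683), in all 12 animals. The cannabinoid receptor gene Cnr1 had 1114 to 2414 in accumbens and 1661 to 2975 in striatum and fell by 0.35 (adjusted p = 0.0183). The call of the sodium/calcium exchanger Slc24a2 (-0.32 ± 0.10) was lost when animal 3, 6, 7, 10, 11 or 12 was left out (adjusted p up to 0.073). With Rgs9, the count was 2 of 5 without animal 3, 7 or 11 and 3 or 4 otherwise. Reln differed by -0.11 and did not pass.

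The largest fall was in Nrgn, the gene of neurogranin, a postsynaptic protein that binds calmodulin. Nrgn had 8428, 9891 and 14612 in accumbens and 20004, 25626 and 27426 in striatum, without overlap. The difference was -1.30 ± 0.07 (adjusted p = 2.25e-09), a signal 2.46 times lower in accumbens. Of 25 tested genes of calcium and calmodulin signalling, 16 fell and 4 rose, against 6.81% and 9.11% of all genes, and the median was -0.48. Leaving out single animals gave 13 to 19 falls and 3 or 4 rises; with the beta-actin ratio as a covariate 9 fell and 3 rose. Hpca, the calcium sensor hippocalcin, had 4657, 5566 and 7174 in accumbens and 7742, 9774 and 13090 in striatum and fell by 0.77. Camkk1, a kinase that activates other calmodulin kinases, had 1207 to 2103 in accumbens and 2409 to 3987 in striatum and fell by 0.78. Neither gene showed overlap. Camk2n1, an inhibitor of calmodulin kinase II and no member of the list, had 2136, 4214 and 4784 in accumbens and 5762, 8379 and 10612 in striatum and fell by 1.04 ± 0.11 (adjusted p = 5.24e-06). The parvalbumin gene Pvalb fell by 0.48, and Camk2a was called at -0.42 (adjusted p = 0.0221; 0.0522 without animal 9), while Camk2b differed by -0.02 and Camk2g by -0.41 without passing. A dimmer Camk2g probe set was called lower at -0.70 (adjusted p = 0.0045), so the probe sets of this gene disagree, and the brightest was called too without animal 2 (-0.51, adjusted p = 0.0102). The list's rises were Calb2 and Camk2d, described above, and Hpcal1 (0.45) and Camk1 (0.30), which are outside the naming rule.

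Genes of the synapse and of activity showed falls beside a few rises. Of 25 synaptic vesicle genes, 9 fell and 2 rose, against 6.81% and 9.11% of all genes, with a median of -0.16. Stx1a, a syntaxin of the release machinery, had 3528, 4256 and 5213 in accumbens and 6102, 7844 and 9112 in striatum, and fell by 0.83 ± 0.07 (adjusted p = 7.98e-07), without overlap. Rims1, a scaffold of the release site, fell by 0.53, the vesicle protein Sv2b by 0.48 and synapsin gene Syn1 by 0.43. The vesicle protein gene Sv2c was called higher at 0.43 ± 0.13 but lost the call without animal 2, 5, 6, 7, 8, 9, 11 or 12 (adjusted p up to 0.0752). Rab3a (-0.16) and Vamp2 (-0.04) did not pass. Homer1, the scaffold of metabotropic glutamate receptors, had 2282, 2708 and 3173 in accumbens and 3693, 4473 and 4725 in striatum and fell by 0.67 ± 0.05 (adjusted p = 3.34e-07), without overlap, and all 6 of its tested probe sets were lower, by -0.53 to -1.27.

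Among 17 tested immediate early genes, which neurons switch on within minutes to hours of activity, 5 fell and 2 rose, against 6.81% and 9.11% of all genes. The nuclear receptor gene Nr4a2, also a marker of claustrum and deep cortical neurons, had 305, 483 and 663 in accumbens and 748, 902 and 1202 in striatum and fell by 0.97 ± 0.10 (adjusted p = 4.19e-06), without overlap. Egr2, a zinc finger transcription factor, fell by 0.74 in all 12 animals, and Klf10 by 0.51. Fos was higher, with 2402, 2918 and 3319 in accumbens and 1524, 2140 and 2833 in striatum, a rise of 0.40 ± 0.09 (adjusted p = 0.00468), and Sgk1 rose by 0.37. Nr4a1 (-0.12) did not pass. Neither did the brightest Egr1 probe set (-0.11), whereas 2 of its other 3 tested probe sets were called lower (-0.25 and -0.32, adjusted p 0.0328 and 0.00527) and the third differed by -0.22. With the beta-actin ratio as a covariate 3 of these genes fell and 0 rose by limma.

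Markers of cortical and hippocampal projection neurons fell in part. The summed signal of 7 tested markers was 14198 to 19144 in accumbens and 24886 to 33150 in striatum, without overlap, and 33206 to 45003 in cortex. Nrgn is among these markers, and its signal, given above, makes up most of the sum in accumbens and in striatum. The median difference over the 7 genes was -0.12, and of all genes 6.81% fell and 9.11% rose. Of the 7, 3 fell (Nrgn, Nptx1 and Camk2a), Nptx2 rose by 0.31, and the transcription factor gene Neurod2 (290 to 742 in accumbens and 393 to 808 in striatum), Egr4 and Neurod1 did not pass. Nptx1, a secreted pentraxin of excitatory synapses, had 534, 667 and 1298 in accumbens and 1012, 1214 and 1487 in striatum and fell by 0.76. The part of cortical tissue in the falls of this and other groups was not tested.

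The remaining large falls were in genes of varied roles. Lxn, the carboxypeptidase inhibitor latexin, had 693, 1147 and 1405 in accumbens and 1557, 2266 and 3110 in striatum and fell by 1.11 ± 0.11. Dact2, a regulator of Wnt and TGF-beta signalling, had 459, 641 and 793 in accumbens and 1010, 1372 and 1865 in striatum and fell by 1.09 ± 0.09. Neither overlapped. Tnni3, the cardiac troponin I gene, fell by 1.08 (146 to 448 in accumbens and 389 to 648 in striatum), the phosphatase gene Inpp5d by 0.97, the neurturin receptor gene Gfra2 by 0.92, Arhgap25 by 0.89 and the transcription factor gene Pou3f1 by 0.82. The adhesion receptor gene Adgrl2 fell by 0.81 and the pyruvate dehydrogenase phosphatase gene Pdp1 by 0.80.

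Neuropeptides other than opioids moved both ways: of 19 tested genes, 4 rose and 4 fell, against 9.11% and 6.81% of all genes. Crh, the corticotropin-releasing hormone gene, had 221, 336 and 449 in accumbens and 147, 203 and 342 in striatum and rose by 0.65 ± 0.13 (adjusted p = 0.0025; 0.129 with the beta-actin ratio as a covariate). Vip, the gene of vasoactive intestinal peptide, had 68, 228 and 331 in accumbens and 278, 343 and 521 in striatum and fell by 0.79 (adjusted p = 0.00346; 0.333 with the beta-actin ratio). Pcsk2, a protease that matures peptide precursors, had 1287, 2171 and 2484 in accumbens and 3057, 3636 and 4471 in striatum and fell by 0.79, without overlap. Of 5 tested opioid genes limma called 0: Penk and Pdyn are given above, Pnoc differed by -0.09, Pomc by 0.46 (adjusted p = 0.163; 0.0294 without animal 10) and the nociceptin receptor Oprl1 by 0.09. The opioid receptors Oprm1, Oprk1 and Oprd1 were below the filter and not called without it. Of 14 tested peptide receptor genes, 3 fell and 0 rose by limma, against 6.81% and 9.11% of all genes, with Sstr2, a somatostatin receptor, at 527, 630 and 729 in accumbens and 924, 1129 and 1375 in striatum (-0.82 ± 0.07, no overlap), the neurokinin receptor Tacr3 at -0.89 and the cholecystokinin receptor Cckbr at -0.35.

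Markers of interneurons and genes of dopamine synthesis and uptake gave a mixed picture. Of 9 tested GABA interneuron genes, Calb2 rose, and Pvalb, Vip and the fast potassium channel Kcnc2 fell. Over all genes 9.11% rose and 6.81% fell. Sst (7685 to 13680 in accumbens and 10206 to 13812 in striatum, -0.11) and Npy (0.10) did not pass. Kcnc2 differed by -0.82 ± 0.20 (adjusted p = 0.0104). With the beta-actin ratio as a covariate none of these 3 falls passed, at different sizes. Pvalb was unmoved at -0.48 (adjusted p = 0.0507), while Vip was at -0.41 (0.333) and Kcnc2 at -0.12 (0.784). Both tested cholinergic genes rose. Ache, acetylcholinesterase, had 1057, 1754 and 2227 in accumbens and 993, 1271 and 1660 in striatum and rose by 0.38 ± 0.09. The vesicular acetylcholine transporter Slc18a3 was called at 0.36 ± 0.10, a call lost without animal 1, 3, 7, 9 or 10 (adjusted p up to 0.0627), and Chat, below the filter, differed by 0.83 (adjusted p = 0.0597 without the filter). Th, the rate-limiting enzyme of dopamine synthesis, had 423, 760 and 1173 in accumbens and 148, 362 and 584 in striatum and rose by 1.07 ± 0.15 (adjusted p = 7.37e-05), in all 12 animals. The dopamine transporter Slc6a3 was called at -0.38 ± 0.11 and lost the call without animal 1, 2, 3, 4 or 8 (adjusted p up to 0.0697).

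Ionotropic glutamate receptors gave no call. Of 14 tested AMPA, kainate and NMDA receptor subunits limma called 0, with differences between -0.28 and 0.30 and a median of 0.01. Of all genes 15.9% were called, 9.11% higher and 6.81% lower. Gria2 had 1417, 2965 and 4136 in accumbens and 1643, 3059 and 3666 in striatum (-0.01 ± 0.10). Of 11 tested genes of GABA receptors and transport, Gabbr2, a subunit of the metabotropic GABA receptor, had 1955, 2517 and 3081 in accumbens and 3154, 4072 and 4967 in striatum and fell by 0.66 ± 0.06 (adjusted p = 6.83e-07), without overlap, while Gabrg1 rose by 0.30 and the GABA transporter Slc6a11 by 0.52. Of 8 metabotropic glutamate receptor and Homer genes, Homer1 fell, Grm4 rose by 0.33, and Grm3 was called at -0.53 but lost the call without animal 3, 5 or 9 (adjusted p up to 0.0538). Protein kinase C beta, Prkcb, which is abundant in forebrain neurons, had 6877 to 8881 in accumbens and 9580 to 12574 in striatum and fell by 0.42, without overlap.

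**Figure D3:**
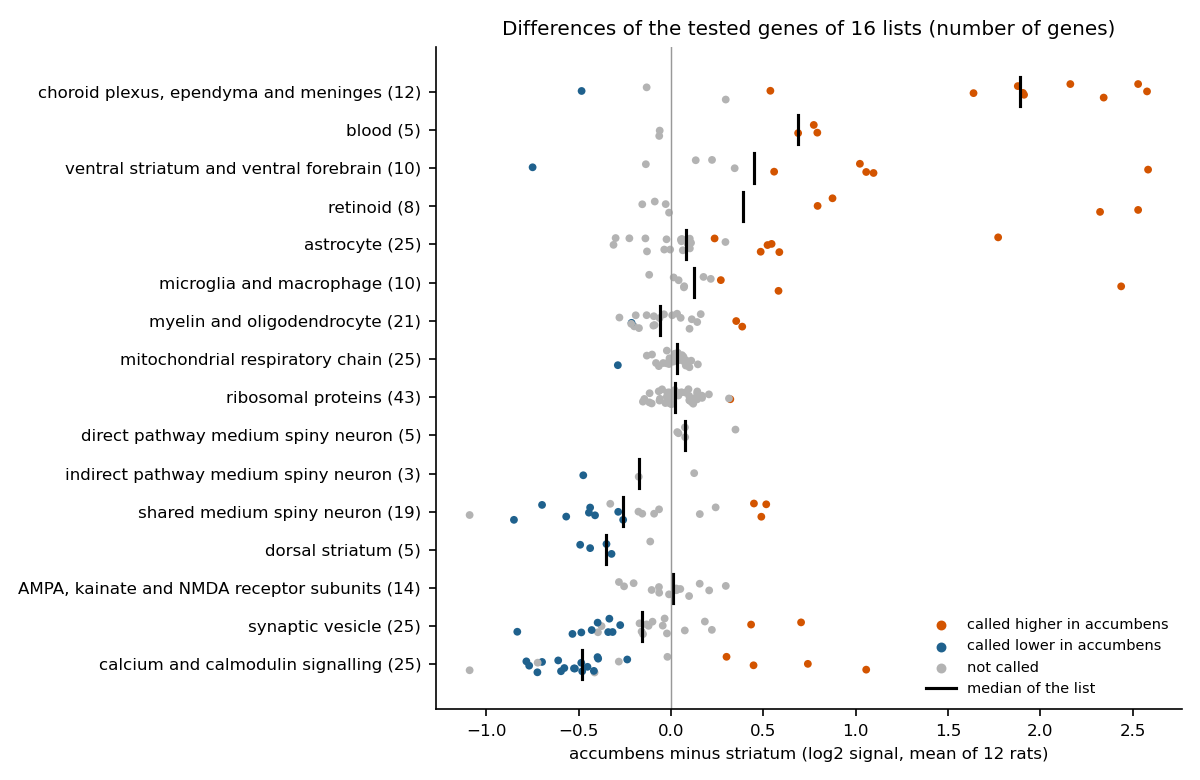
Accumbens minus striatum (log2 signal, mean of 12 rats, x axis) of every tested gene of 16 gene lists, with the number of genes in brackets. Orange points are genes called higher in accumbens, blue points genes called lower, grey points genes not called, and black bars the list medians, which run from 1.89 for the choroid plexus, ependyma and meninges list to -0.48 for calcium and calmodulin signalling.

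The largest list median was that of genes of the brain's coverings and fluid spaces. The list of choroid plexus, ependyma and meninges markers had 12 tested genes, of which 9 rose, 1 fell and 2 did not pass, against 9.11% higher and 6.81% lower of all genes, with a median of 1.89. Igfbp2, which binds insulin-like growth factors, had 2046, 2562 and 3636 in accumbens and 325, 497 and 1260 in striatum and rose by 2.34 ± 0.21 (adjusted p = 8.39e-07); all 3 tested probe sets rose. Ptgds, the prostaglandin D synthase of the leptomeninges, had 24283, 28272 and 34752 in accumbens and 4342, 7224 and 18256 in striatum and rose by 1.91 ± 0.20. The accumbens values of both genes lay above every striatum value.

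The fibrous collagens rose with them. Col1a2 had 1050, 1301 and 4550 in accumbens and 231, 380 and 663 in striatum and rose by 1.91 ± 0.15. Col1a1 rose by 2.16 ± 0.23, and its signal reached 18082 in 1 accumbens array. The organic anion transporter Slc22a6 rose by 2.58 ± 0.29, in 11 of 12 animals, with iNP animal 11 at -0.94. Igf2, the growth factor gene, rose by 1.88 ± 0.19 at its brightest probe set, while a pair of dimmer tested probe sets of another sequence record differed by -0.13 and -0.01. The main marker of the choroid plexus epithelium, Ttr (transthyretin), had 279, 362 and 449 in accumbens and 207, 305 and 394 in striatum and did not pass (0.30 ± 0.11, adjusted p = 0.0717). Enpp2, which is made by choroid plexus and oligodendrocytes, differed by -0.13, and Cd24, an ependymal and immature neuron gene, fell by 0.48 without overlap. The list thus held large rises beside markers that did not pass or fell.

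**Figure D4:**
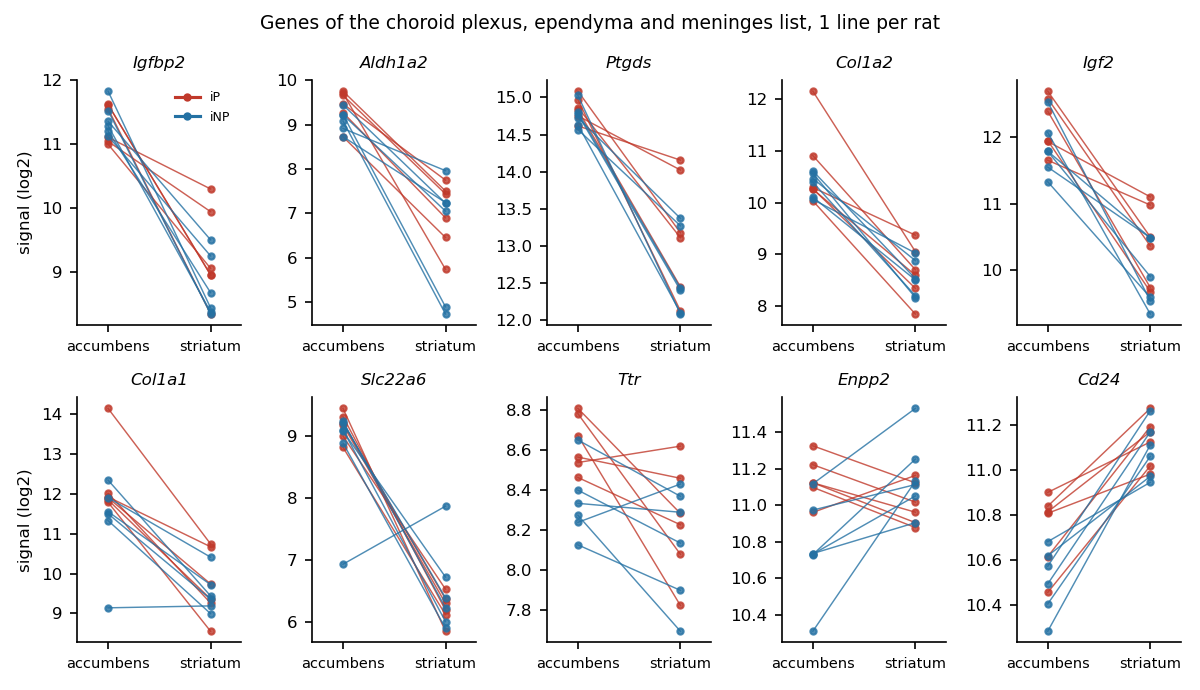
Signal (log2, y axis) of 10 genes of the choroid plexus, ependyma and meninges list in accumbens (left) and striatum (right), with 1 line per rat, red for iP and blue for iNP. Igfbp2, Aldh1a2, Ptgds, Col1a2 and Igf2 are higher in accumbens in all 12 rats, Col1a1 and Slc22a6 in 11, while Cd24 is lower in all 12.

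The size of this shift varied among animals. The summed signal of the 12 genes was 37945 to 59642 in accumbens and 11453 to 29152 in striatum, higher in accumbens in 12 of 12 animals, and no member was at the floor of 16 in any array. In the other regions it was 30204 to 56624 in amygdala, 18522 to 48817 in cortex and 12937 to 88348 in hippocampus. The median difference over the list was smallest in iP animal 5 (0.769) and largest in iP animal 3 (2.42). In iP animal 5, Cartpt was higher in accumbens by 2.87, Nmbr by 2.49 and Ptpro by 1.80, and Nrgn differed by -1.53. In iP animal 1, the next by list median (0.886), these 4 values were 2.21, 1.70, 1.19 and -1.55, and in iNP animal 11 (0.993) they were 2.26, 1.88, 1.90 and -1.48. In iP animal 3 they were 2.69, 1.61, 1.60 and -1.18. A single direction in all 12 animals was part of the rule that named these 4 genes, so it is no finding here. Adora2a differed by -0.0047 in iP animal 5, by -1.05 in iP animal 1, by -0.66 in iNP animal 11 and by -0.45 in iP animal 3. Of all 3174 genes tested, 49 were higher by more than 1 (1.54%). Of these 49, 8 are among the 12 tested genes of this list, as are 5 of the 20 largest rises. The part of covering tissue in the other rises was not tested.

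Retinoid genes overlapped with that list. Of 8 tested, 4 rose and 0 fell by limma, against 9.11% and 6.81% of all genes, and the receptors Rara (-0.03), Rxrg (-0.16) and Rxrb did not pass. Aldh1a2, a retinoic acid synthesising enzyme known from meninges, had 424, 610 and 866 in accumbens and 27, 141 and 250 in striatum and rose by 2.53 ± 0.28 (adjusted p = 7.13e-06). Crabp2, a carrier of retinoic acid, had 607, 868 and 1278 in accumbens and 55, 211 and 440 in striatum and rose by 2.32 ± 0.30. Aldh1a1, an enzyme of the same family that also marks dopamine neurons, had 1179, 1900 and 2307 in accumbens and 722, 1035 and 1553 in striatum and rose by 0.87 ± 0.09. The retinol carrier gene Rbp4 rose by 0.79 ± 0.11.

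Other large rises were in genes of connective tissue, smooth muscle and barrier cells. Vim, the filament protein vimentin, had 2797, 3361 and 5191 in accumbens and 695, 953 and 1729 in striatum and rose by 1.77 ± 0.12. The galectin gene Lgals1 rose by 1.80, cardiac troponin T gene Tnnt2 by 1.65, the matrix gene Efemp1 by 1.52, annexin gene Anxa2 by 1.39 and the gap junction gene Gjb2 by 1.45. Slc6a13, a GABA transporter known from meninges, had 502 to 883 in accumbens and 160 to 442 in striatum and rose by 1.35. The smooth muscle genes Acta2 (1.34 ± 0.16) and Tagln (1.24 ± 0.11) were the 2 calls among 11 endothelial and mural genes. Of all genes 15.9% were called, and the median of this list was 0.06. Another tested probe set of Acta2 differed by 0.04. The brightest Sparc probe set did not pass (-0.18), whereas 3 others were called at 0.62 to 0.78.

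Immune and blood genes were higher in part. Cd74, the invariant chain of class II antigen presentation, had 268, 537 and 1163 in accumbens and 25, 153 and 296 in striatum and rose by 2.44 ± 0.26 (adjusted p = 5.32e-06). The class II gene RT1-Da rose by 1.41 ± 0.16 and RT1-Bb by 0.64 ± 0.13. Of 10 microglia and macrophage genes 3 were called higher, against 9.11% of all genes: Cd74, the lysozyme gene Lyz2 (0.58) and the complement gene C1qb (0.27 ± 0.08), the last of which lost its call when any of 9 single animals was left out (adjusted p up to 0.0768). Ctss (0.18) and C1qc (0.01) did not pass. Of 5 blood genes, the haemoglobin genes Hbb-b1 (0.79 ± 0.07) and Hbb (0.77 ± 0.07) and the haem synthesis gene Alas2 (0.69 ± 0.09) rose in all 12 animals. The probe sets of Hbb-b1 and Hbb both carry the suffix of probe sets that match several family members, so these rises may not be separate. The summed signal of the blood list was 34890 to 69971 in accumbens and 25488 to 57405 in striatum.

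Among genes of glia, 6 of 25 tested for astrocytes and 3 of 21 for myelin and oligodendrocytes were called, against 15.9% of all genes. The 6 astrocyte genes were all higher, among them Vim, Id3 (0.54) and Slc4a4 (0.49). Agt, the angiotensinogen gene, was called at 0.59 ± 0.16; it kept the call without any single animal (adjusted p up to 0.0404) and lost it without animals 2 and 4 together (0.0611). Aldh1l1 was called at 0.24 ± 0.08, a call lost without any of 10 single animals (adjusted p up to 0.1). Apoe had 33853 to 47821 in accumbens and 29916 to 44585 in striatum and differed by 0.09. Of 21 myelin and oligodendrocyte genes, Pmp22 (0.35) and Gsta4 (0.39) rose and Mal fell by 0.21. Gsta4, a glutathione transferase gene placed on this list, differed by 0.62 in iP and 0.15 in iNP rats (limma interaction, adjusted p = 0.832). Mbp had 36638 to 64408 in accumbens and 37723 to 66753 in striatum (-0.19 ± 0.08, adjusted p = 0.123).

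Few genes of protein synthesis and respiration were called. Among 43 ribosomal protein genes 1 was called (Rps27l, 0.32), with a median of 0.02, and among 25 genes of the mitochondrial respiratory chain 1 (Ndufa8, -0.29 ± 0.08; lost without animal 8 or 9, adjusted p 0.0552 and 0.0578), with a median of 0.03. Of 12 glycolysis genes 4 fell and 0 rose by limma, against 6.81% and 9.11% of all genes. Pkm, a pyruvate kinase, had 15728, 19228 and 22517 in accumbens and 20504, 22920 and 24021 in striatum and fell by 0.22 (adjusted p = 0.00232), in all 12 animals. Aldoa fell by 0.19 and Pfkl by 0.23; Pfkp was called at -0.20 and lost the call without animal 7 or 9 (adjusted p 0.0527 and 0.0522).

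No difference between the lines in the accumbens minus striatum values passed the test. Taken alone, the 6 iP rats gave 294 calls (5.61%) and the 6 iNP rats 390 (7.44%). Cartpt was higher in accumbens by 2.66 ± 0.20 in iP rats and by 2.51 ± 0.11 in iNP rats, and Nrgn differed by -1.33 ± 0.10 in iP rats and by -1.27 ± 0.08 in iNP rats. The test of the line by region interaction gave 0 calls by limma (smallest adjusted p = 0.832), with 286 probe sets at an unadjusted p under 0.05 (5.45%). The smallest unadjusted p values were those of a dimmer probe set of Eif4h (-0.52 in iP and 0.22 in iNP) and of the complement gene C1r (0.79 ± 0.14 in iP and 1.77 ± 0.17 in iNP).

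Set against the other regions, the leading genes fell into different patterns. Cartpt averaged 10.74 ± 0.31 in accumbens (log2 signal, SD, n = 12) and 8.16 ± 0.36 in striatum, with 7.56 ± 0.61 in amygdala, 7.15 ± 0.81 in cortex and 7.76 ± 0.52 in hippocampus. Nmbr likewise had its highest mean in accumbens (9.27 ± 0.30), with the other 4 regions between 7.23 and 7.54. Ptpro averaged 11.41 ± 0.23 in accumbens and 9.69 ± 0.16 in striatum, and 11.45 ± 0.63 in amygdala, or 11.63 ± 0.10 there without iP animal 1 (n = 11). The lower genes differed too: Nrgn averaged 13.30 ± 0.21 in accumbens and 14.60 ± 0.15 in striatum, while amygdala, cortex and hippocampus lay at 14.39 ± 0.23, 14.86 ± 0.16 and 14.52 ± 0.13. Nrgn had its lowest mean in accumbens, also without amygdala of iP animal 1 (14.35) and cortex of iP animal 5 (14.82). Tnni3 and Lxn instead had their highest mean in striatum (9.06 ± 0.22 and 11.15 ± 0.30), and Dact2 in cortex (11.15 ± 0.24), followed by striatum (10.39 ± 0.32). Without cortex of iP animal 5, Dact2 averaged 11.13 ± 0.23 in cortex. These levels are descriptions and were not tested across the 5 regions.

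Some named calls were lost under another fit. With the beta-actin ratio as a covariate, 52 of the 138 named calls were lost (adjusted p 0.0507 to 0.784). Among genes given above these were also Cnr1, Camk2a, Slc24a2, Rims1, Sv2c, Klf10, Fos, Sgk1, Nptx2, Tacr3, Cckbr, Slc18a3, Slc6a3, Grm3, Grm4, Id3, Slc4a4, Aldh1l1, C1qb, Pmp22, Mal, Rps27l, Ndufa8, Aldoa, Pfkl and Pfkp. Cartpt, Nmbr, Ptpro, Nrgn, Itpr1, Homer1, Adora2a, Igfbp2 and Col1a2 kept their calls in every fit that tested them. With all 59 arrays in 1 fit 21 named calls were lost (adjusted p 0.053 to 0.722), including those of Gad2, Actn2, Gng7, Rgs9, Rims1, Slc4a4, Mal and Aldoa. Without the animal as a block 7 were lost, including those of Sgk1, Slc4a4 and Ndufa8 (adjusted p 0.0565 to 0.247). Leaving out single animals also added calls: Isl1 was called without animal 2, 4 or 12 (adjusted p 0.0297 to 0.0485), Ctss without animal 5 (0.0394), Ttr without animal 10 (0.0467), Mbp without animal 11 (0.0485) and the brightest Sparc probe set without animal 2 (0.0458). Of called genes, Adcy5, Camk2a, Gng7, Cckbr, Fos, Id3, Pfkp, Pmp22 and RT1-Bb each had a dimmer tested probe set that did not pass, with differences of 0.01 for Pmp22 and 0.14 for Id3.

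**Figure D5:**
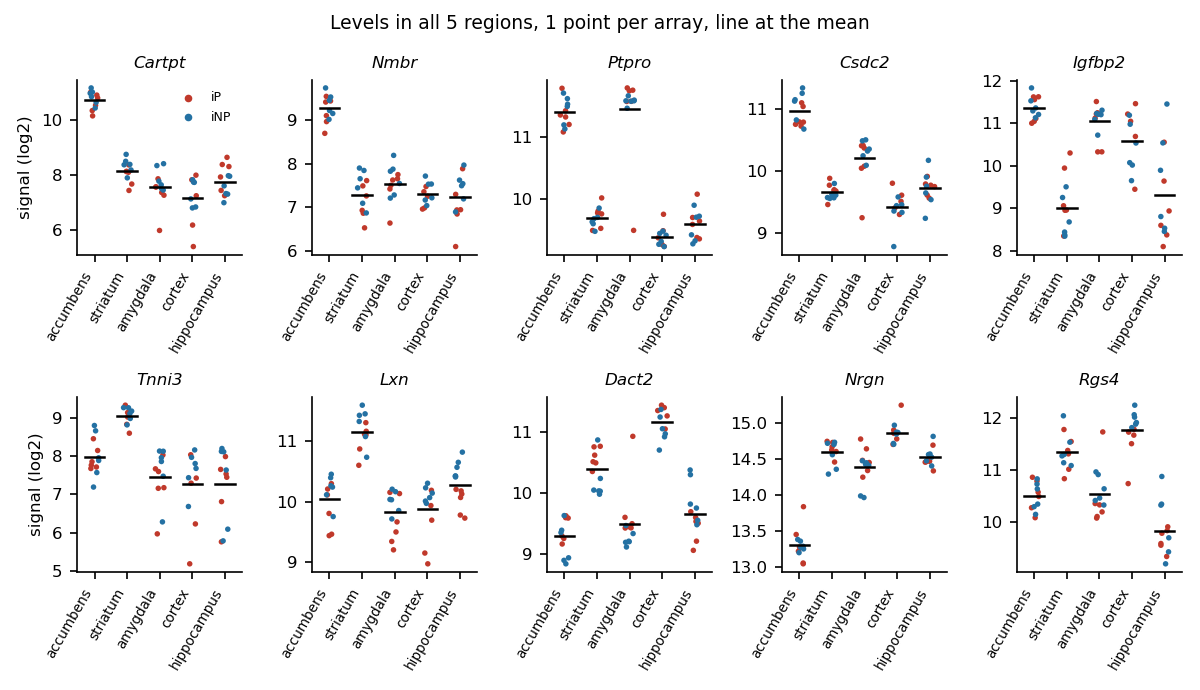
Signal (log2, y axis) of 10 genes on every array of accumbens, striatum, amygdala, cortex and hippocampus, red for iP and blue for iNP rats, with the mean as a black line. Cartpt and Nmbr are highest in accumbens, Ptpro is high in accumbens and amygdala, Tnni3 and Lxn are highest in striatum, and Nrgn is lowest in accumbens. Amygdala of iP animal 1 is the low amygdala point of Ptpro and Csdc2.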

How the data were processed

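Each array holds 1 region of 1 rat. The deposited intensity values are linear, 1 per probe set and array, and came already scaled by the authors, since the 2% trimmed mean is 1000 on every array; the program and its settings are not given in the sources used here. No further scaling was applied. Signals were floored at 16 and log2 transformed. Of 8799 probe sets, 59 controls and the 40% with the lowest mean over all 59 arrays were left out, which left 5244. The platform annotation gives 1 symbol to 7006 probe sets, several to 308 and none to 1426; 6985 of the first kind have their gene ID in the GRCr8 table. An array gives no read depth; precision is limited by the 12 animals.

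Accumbens and striatum were compared with limma 3.58.1 in R 4.3.3 (lmFit, the animal as a fixed block, eBayes with an intensity trend, two-sided, Benjamini-Hochberg over all 5244 probe sets); errors are SE of the difference unless named. A gene stands for its brightest tested probe set. The pairing comes from the animal numbers in the titles. Deviations from the group means correlated by 0.097 on average within animals, with 2 of 12 animals below 0, and by -0.00774 between animals. In 1 of 12 animals the striatum array that best matched the accumbens array was the animal's own. Named genes are the 20 highest and 20 lowest differences of called genes that have 1 direction in all 12 animals, up to 6 called and 2 uncalled genes of each list, every tested member of the spiny neuron, striatum, opioid and cholinergic lists, and the 5 smallest interaction p-values. The members and lists were chosen with earlier results of these data known. RNA quality measures were tested by exact permutation over 4096 sign flips. The fits were tested on simulated data.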

Additional observations from a re-analysis of the deposited data

Results flagged for a closer look

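Within each group of 6 rats, the highest and lowest value were set against the others by Dixon's ratio, in 20 tests of array quality measures (4 marked) and 80 tests of per-animal differences of the 40 leading genes (7 marked); chance marks about 1 in 20. Median signal was 382.1 in accumbens of iNP animal 7 (354.5 to 363.8 in the other 5). The hexokinase 3′ to 5′ ratio was 3.907 (log2) in accumbens of iP animal 4 (0.6767 to 1.236 in the others), and the same array had a mean correlation of 0.9253 with its group (0.9507 to 0.9559). Striatum of iP animal 2 had 0.9511 (0.9627 to 0.967). Among accumbens minus striatum differences, Aldh1a2 was 3.972 in iP animal 3 (1.72 to 2.374 in the others) and RT1-Da 2.212 in iNP animal 9 (0.6185 to 1.18). Among the falls, Camkk1 was -1.412 in iNP animal 12 (-0.7126 to -0.452) and Vip -2.467 in the same rat (-1.047 to -0.2223). Kcnc2 was -1.907 in iP animal 6 (-0.3681 to -0.0379), Sstr2 -0.9994 in iNP animal 8 (-0.867 to -0.8095), and Stx1a -0.2273 in iNP animal 7 (-1.044 to -0.7569). These genes were named for 1 direction in all 12 animals, so none of the marked differences could have the other direction.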

How the results depend on the processing

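The count of 800 probe sets called stayed within 1.5 times under the other settings chosen at the start: no replicate block 766 (717 shared with the paired fit), all 59 arrays 739, quantile normalization 770 (386 higher and 384 lower), array weights 860 and the GAPDH ratio as a covariate 882. Without single animals it ran from 665 (without animal 9) to 805 (without animal 2), with 379 to 454 higher, 286 to 351 lower, 68 to 75 higher by over 1, 15 to 19 lower by over 1, 123 to 140 of 486 listed genes called, and 0 interaction calls. Without animals 2 and 4, chosen after seeing the data, 788 were called. Counts past a difference of 1 moved with the filter on dim probe sets, which sets how many are tested: without it 131 higher and 29 lower, with 60% dropped 30 higher and 10 lower. With the beta-actin ratio as a covariate, chosen after seeing the data, 367 were called (340 shared), 206 higher and 161 lower, with 78 listed genes called; the ratio differs between the regions, and the cause of the loss was not tested. No named call was reversed under any alternative; 79 of 138 named calls were kept under all of them. Over all settings and named calls, 3196 cases kept the call and 221 lost it. The pairing rests on the same animal, and the fit without the block moved no list's count of rises or falls by more than 1. Of 92 named genes with over 1 tested probe set, 26 had probe sets that differed in call. The number of rats and the signal over background limit what dim genes such as the opioid receptors can show.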

Other observations

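On arrays not used in the comparison, the called probe sets also differed between amygdala and cortex. The median amygdala minus cortex difference was 0.266 (log2) over the 460 probe sets higher in accumbens, of which 81.1% were above 0, and -0.212 over the 340 lower, of which 23.2% were above 0, against 0.0214 and 53.7% over all 5244. Without amygdala of iP animal 1 and cortex of iP animal 5 the medians were 0.303, -0.277 and 0.00851. For amygdala minus hippocampus, with all arrays, the medians were 0.25, -0.0648 and -0.00065, and 78.3%, 41.8% and 49.8% were above 0. For cortex minus hippocampus, with all arrays, the medians were 0.00416, 0.167 and -0.0177, and 50.7%, 67.6% and 46.5% were above 0. The lower set thus also differed between cortex and hippocampus. These arrays come from the same rats, and no test was run on these values.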
